A study of Mus musculus with 12 samples.

Results

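This is an account of 31 complement and acute phase genes in mouse skin, out of 18858 genes measured. They were taken by symbol, and all 31 were found. They encode the recognition proteins and proteases that start complement, the parts of its convertases and of its terminal pore, receptors, inhibitors, and acute phase proteins such as serum amyloid A and haptoglobin. The skin came from BALB/C mice, a white inbred strain, aged 8 weeks, and its poly(A) RNA was sequenced. There were 12 labelled samples, 3 each of PBS (buffered saline, taken here as the control), of TL+L, of TSeL and of TSeL+L. What TL, TSeL and L are is not said in the labels, nor how they were given, for how long, or whether each sample came from its own animal, so p-values measure only the spread between these samples. No genetic change is named for any group.

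The 12 columns of estimated gene counts each held between 16630580 and 17318158 counts. The 3 columns read as TSeL differed from each other little more than repeat counts of 1 library would, and so did the 3 read as TSeL+L. Each trio was averaged and counted as 1 sample, which left 3 PBS samples, 3 TL+L samples, 1 TSeL sample and 1 TSeL+L sample. Tests that involve a lone sample assume that it varies as PBS and TL+L samples do, and the reading of those column codes as TSeL and TSeL+L rests on the codes alone. Keratins of the epidermis were abundant in all 8 samples, with Krt14 between 1465 and 2996 FPKM (fragments scaled to gene length and sequencing depth).

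Complement is a cascade of proteases and binding proteins that marks microbes and damaged cells for removal, attracts leukocytes and can pierce membranes. It can be started by C1q with its proteases C1r and C1s, by lectins with the MASP proteases, or by the slow turnover of C3 itself, and each route meets at the cleavage of C3. Acute phase proteins are made in larger amounts during inflammation, mainly by the liver under the cytokines IL-6 and IL-1, while skin, fat and leukocytes make some of them, and complement components, locally.

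The members differed widely in level. Mean FPKM over the 8 samples was highest for Saa3 (1452), the serum amyloid A that mice make mainly outside the liver, followed by Hp (572), the haemoglobin-binding haptoglobin, and Cfd (472), the factor D protease that fat cells secrete as adipsin. Serping1 (284 FPKM), the C1 inhibitor, and C3 (259.8 FPKM), the central component, came next, and the 3 chains of C1q followed with 149 to 169.6 FPKM. At the low end stood C5ar2 (0.698 FPKM), Vsig4 (0.437 FPKM) and Cfi (0.128 FPKM). Cfi, the factor I protease that destroys C3b, had 1 to 7 counts per sample and was too low to be tested, and the other 30 members were tested.

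**Figure D1:**
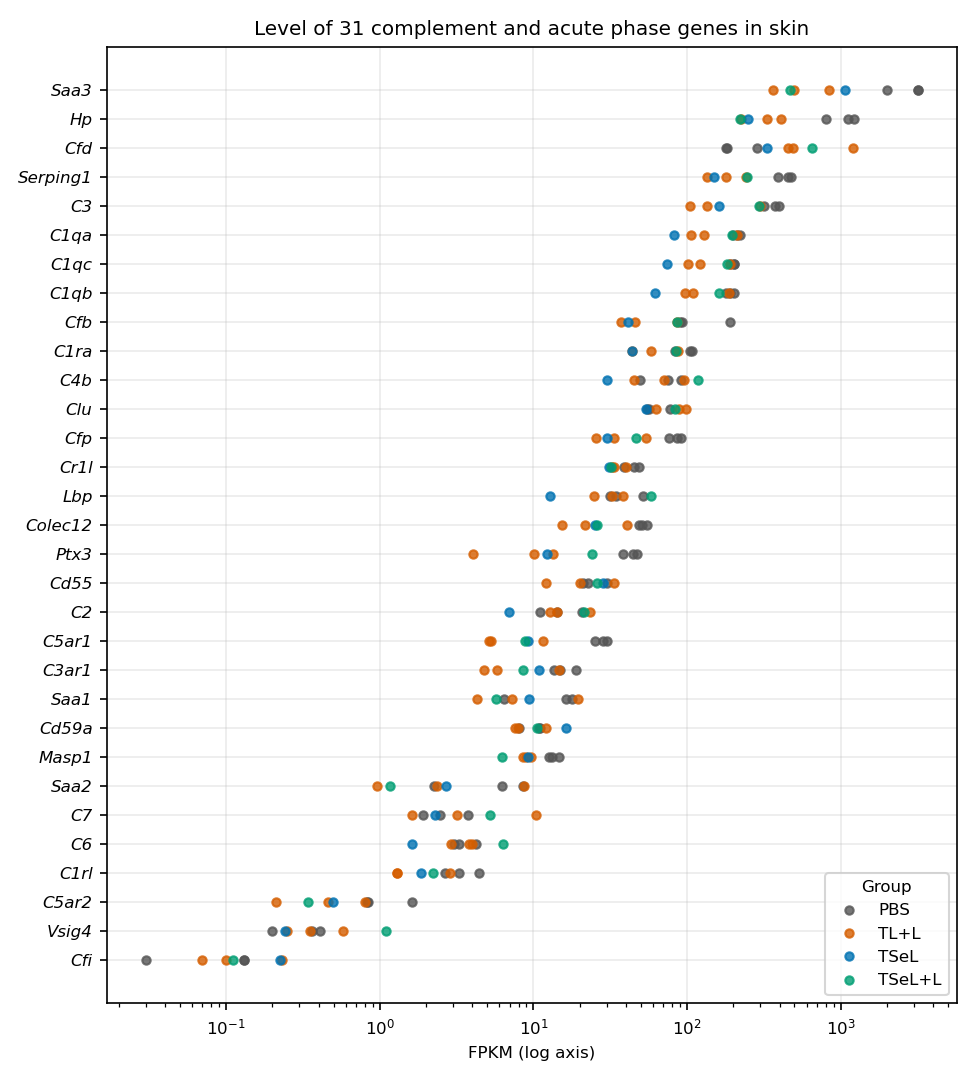
Level of each of the 31 members in FPKM on a log axis, with 1 point per sample coloured by group and genes in order of their mean. The order runs from Saa3, between 363 and 3202 FPKM, to Cfi, between 0.03 and 0.23 FPKM, and the PBS points of Saa3, Hp and Serping1 lie to the right of all other groups.

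TL+L was compared with PBS first, the comparison with 3 samples on both sides. Of the 30 members tested, 7 fell and 0 rose at an edgeR adjusted p under 0.05, beside 7.17% of all 15791 genes tested called lower and 5.67% called higher, 12.8% in all. The 7 were the acute phase genes Saa3, Hp and Ptx3, the C5a receptor C5ar1, the inhibitor Serping1, the convertase stabiliser Cfp and the lectin pathway protease Masp1. Their falls ran from 1.64-fold for Masp1 to 5.64-fold for Saa3. The median log2 fold change was -0.66 over the 30 members and 0.01 over all genes tested. In 17 members every TL+L sample was below every PBS sample, as in 21.8% of all genes, and in 1 member, Cfd, every TL+L sample was above, as in 20.6% of all genes. At an unadjusted p under 0.05, 16 members were lower and 1 was higher, beside 18.6% and 17.7% of all genes. DESeq2 called 12 members lower and 1 higher, beside 13.1% and 11.1% of all genes. The edgeR calls depended on single samples, among all genes as among the members. Without PBS 1 or without PBS 2 no member was called, when 0.0951% and 0.515% of all genes were called lower. Without PBS 3 or without TL+L 1 only Saa3 was called (0.775% and 0.928% of all genes lower), and without TL+L 3 only Ptx3 was (0.381%). Without TL+L 2, 18 fell and 1 rose, when 21.4% of all genes were called lower and 18.6% higher.

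**Figure D2:**
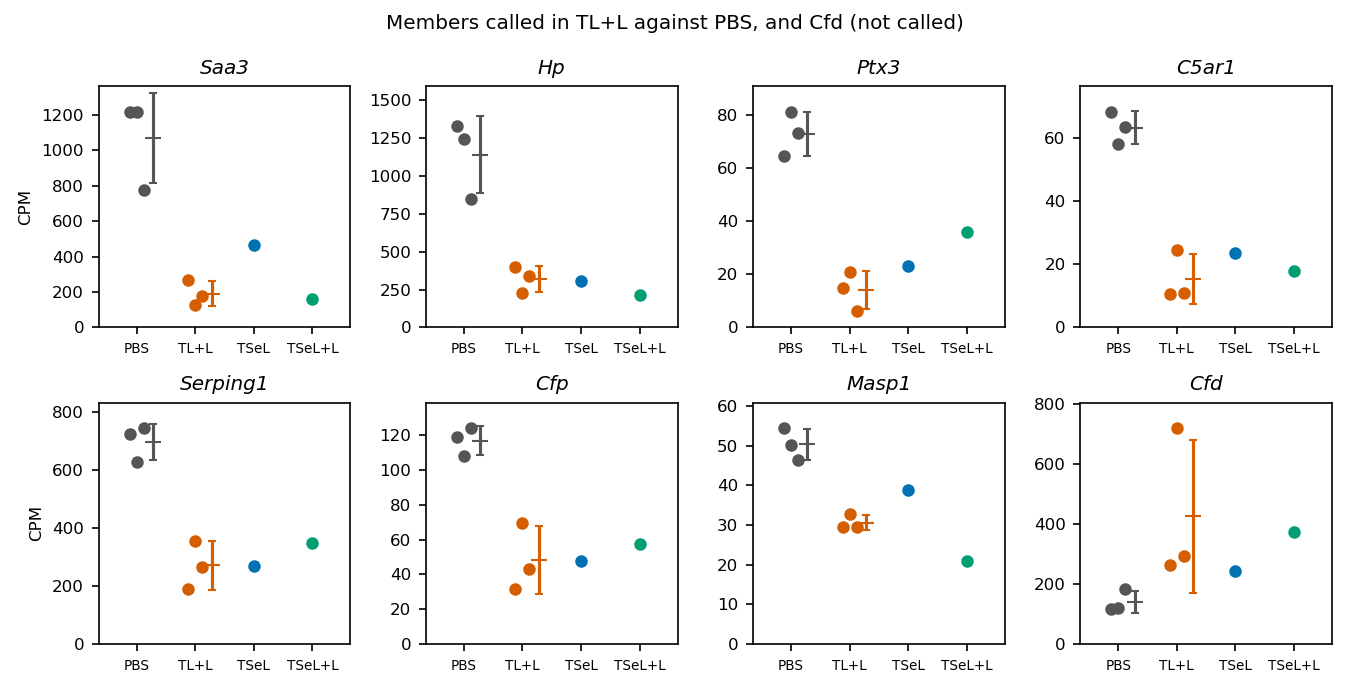
CPM (counts scaled to depth) of the 7 members called in TL+L against PBS and of Cfd, with 1 point per sample on linear axes from 0 and, for PBS and TL+L, the mean and SD of 3 samples as a bar beside the points. In the 7 called members all 3 TL+L points lie below all 3 PBS points, and in Cfd they lie above, with TL+L 2 at 720.2 CPM.

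Among the genes that recognise targets and start the cascade, Masp1, the gene of a protease that lectins carry to sugar patterns on microbes, was the 1 that passed. It had 54.4, 50.1 and 46.5 CPM in PBS 1 to 3 and 29.6, 32.7 and 29.6 CPM in TL+L 1 to 3. The groups did not overlap and the TL+L samples lay close together. It fell 1.64-fold (log2 fold change -0.72, SE 0.12, edgeR adjusted p = 0.0261, n = 3 and 3), and the TSeL sample had 38.8 CPM and the TSeL+L sample 20.9 CPM. Its samples spread little, with an SD of 3.97 CPM in PBS and 1.83 CPM in TL+L. In every sample 94.3% to 98.5% of its counts were on transcript NM_001359083 and 0.754% to 3.45% on NM_008555. The values are of the gene as a whole, and which form of its protein they concern was not tested.

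The chains of C1q, the molecule that binds antibody on a target, kept nearly the same proportions to each other in every sample. Per length, C1qb stood at 0.746 to 0.918 times C1qa and C1qc at 0.895 to 0.959 times, the lowest values of both in TSeL. C1qa had 163, 176 and 176 CPM in PBS and 77.2, 159 and 97.4 CPM in TL+L, with 76.7 CPM in TSeL and 143 CPM in TSeL+L. The TL+L samples were all below PBS, but TL+L 2 by little. The 3 chains were 1.55-fold to 1.58-fold lower in TL+L, with edgeR adjusted p between 0.107 and 0.137, and none passed. Without TL+L 2 all 3 were called, 1.93-fold to 2.02-fold lower. C1ra, a C1r protease gene with a close paralogue, had 275, 218 and 264 CPM in PBS and 98.2, 204 and 137 CPM in TL+L (1.72-fold lower, edgeR adjusted p = 0.0945). The related C1rl, a C1r-like protease, had 7.50, 9.40 and 12.2 CPM in PBS and 3.23, 7.46 and 3.40 CPM in TL+L (2.07-fold lower, edgeR adjusted p = 0.108).

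Macrophages are a known source of C1q. The summed FPKM of 12 macrophage and monocyte markers ran from 2362 to 4151 across PBS and was 839.6, 2564 and 968 in TL+L 1 to 3, 1964 in TSeL and 1708 in TSeL+L. TL+L 2 thus lay above PBS 1. Lyz2, lysozyme, made up 75.4% to 88.6% of the sum, and the other 11 markers summed to 433 to 537 FPKM across PBS and to 206, 402 and 237 FPKM in TL+L 1 to 3. Of the 12 markers, 5 had every TL+L sample below every PBS sample, beside 21.8% of all genes. In TL+L 0 passed edgeR's test, and 6 were called by DESeq2 and 3 by limma-voom. Of the 12, 6 were lower at an unadjusted p under 0.05 in edgeR, beside 18.6% of all genes. None of the 12 was at 0 counts in every sample. Adgre1, which encodes the macrophage surface protein F4/80, had 19.5, 24.0 and 33.9 FPKM in PBS and 9.88, 30.9 and 9.10 FPKM in TL+L. The part of these cells in the C1q values was not tested. In whole skin, fewer cells of a type and less RNA per cell cannot be told apart.

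Of the genes for the convertases, the enzymes that cleave C3, Cfp fell and Cfd was higher. Cfp encodes properdin, which stabilises the alternative pathway convertase and which neutrophils release. It had 119, 108 and 124 CPM in PBS and 31.6, 69.7 and 43.2 CPM in TL+L. Every TL+L sample was below every PBS sample, and the fall was 2.42-fold (log2 fold change -1.28, SE 0.28, edgeR adjusted p = 0.0385). The TSeL sample, at 47.7 CPM, and the TSeL+L sample, at 57.6 CPM, lay within the TL+L range.

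Factor D, the product of Cfd, cuts factor B and so completes the alternative convertase. Cfd had 117, 120.1 and 182 CPM in PBS, 264, 720.2 and 295 CPM in TL+L, 243 CPM in TSeL and 375 CPM in TSeL+L. All 5 samples outside PBS were above all PBS samples, TL+L 2 by far the most. It was 3.06-fold higher in TL+L (log2 fold change 1.61, SE 0.43) and did not pass, with an edgeR adjusted p of 0.0542. Over 15 alternatives its adjusted p ran from 0.00121 to 0.160, and it was called in 5. It was called with DESeq2 (adjusted p = 0.00121) and limma-voom (adjusted p = 0.0499). With edgeR it was called with library totals as the scaling (adjusted p = 0.0399) and with all 12 columns as samples (adjusted p = 0.00309). Without TL+L 2 it was called at a log2 fold change of 1.00 (edgeR adjusted p = 0.0145). Markers of white fat cells were also higher in TL+L. Of 10 such markers, 2 rose in TL+L at an edgeR adjusted p under 0.05, beside 5.67% of all genes. DESeq2 called 7 of the 10 and limma-voom 0. The summed FPKM of the 10 ran from 1359.8 to 1509 across PBS and from 1799 to 4658 across TL+L. It was 2620.4 in TSeL and 2199 in TSeL+L. Fabp4 and Car3 made up 84.2% to 94.3% of the sum. Without them the sum ran from 99.7 to 164 across PBS and from 252 to 735 across TL+L, and was 149 in TSeL, inside the PBS range, and 343 in TSeL+L. None of the 10 was at 0 counts in every sample. Adipoq, the fat cell hormone adiponectin, had 29.1, 19.7 and 45.2 FPKM in PBS and 50.4, 175 and 51.6 FPKM in TL+L, where TL+L 2 again stood apart. The part of fat tissue in the Cfd values was not tested.

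C3 was among the most variable members in TL+L. It had 1707, 1402 and 1332 CPM in PBS, 346, 1202 and 518 CPM in TL+L, 752 CPM in TSeL and 1082 CPM in TSeL+L. All TL+L samples were below PBS, from 23.4% of the PBS mean in TL+L 1 to 81.2% in TL+L 2, and the 2.15-fold difference did not pass (edgeR adjusted p = 0.137). Cfb, factor B, had 233, 230.2 and 474 CPM in PBS and 82.8, 201 and 107 CPM in TL+L (2.40-fold lower, edgeR adjusted p = 0.0905), and PBS 3 was far above the other PBS samples. Both were called lower without TL+L 2, C3 3.42-fold and Cfb 3.29-fold. C2 and C4b, which form the classical convertase, overlapped between the groups. C2 had 34.8, 27.5 and 49.4 CPM in PBS and 27.5, 52.1 and 32.4 CPM in TL+L (edgeR adjusted p = 0.993). C4b had 398, 265 and 475 CPM in PBS and 208, 468 and 345 CPM in TL+L (edgeR adjusted p = 0.761). Counts of C4b, which has a close paralogue, were not whole numbers in any of the 12 columns, nor were those of C1ra, Cd59a and Colec12. An estimated count is not whole where reads fit more than 1 gene, so the levels of these 4 members are less certain. The main C3 transcript (NM_009778) took 55.5% to 82.9% of the counts of C3, without a split by group.

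Terminal components build the membrane pore, and only C6 and C7 are members. C6 had 10.9, 8.79 and 7.76 CPM in PBS and 6.78, 9.79 and 9.43 CPM in TL+L, and the groups overlapped. It was lowest in TSeL, at 4.83 CPM, and highest in TSeL+L, at 14.8 CPM. C7 had 164, 114 and 87 counts in PBS and 74, 141 and 478 counts in TL+L, so that TL+L 3 alone was far above all others and no difference passed (edgeR adjusted p = 0.422).

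Of the receptors, C5ar1 fell and C3ar1 and C5ar2 were lower without passing. C5ar1 encodes the receptor through which the fragment C5a attracts and activates neutrophils and macrophages. It had 68.1, 57.9 and 63.4 CPM in PBS, 10.7, 24.4 and 10.9 CPM in TL+L, 23.6 CPM in TSeL and 17.8 CPM in TSeL+L. All 5 samples outside PBS were at most 38.7% of the PBS mean, and the PBS samples lay close together. The fall in TL+L was 4.11-fold (log2 fold change -2.04, SE 0.34, edgeR adjusted p = 0.0265). C3ar1, the receptor for C3a, had 56.2, 62.3 and 77.4 CPM in PBS and 17.3, 56.0 and 22.4 CPM in TL+L. TL+L 2 lay just under the lowest PBS sample, and the 2.05-fold difference did not pass (edgeR adjusted p = 0.142). C5ar2, the C5a receptor that does not couple to G proteins, had 1.89, 2.34 and 4.03 CPM in PBS and 0.477, 1.94 and 0.893 CPM in TL+L, which overlapped. Vsig4, a receptor for C3b on tissue macrophages, had 0.488, 0.246 and 0.414 CPM in PBS, 0.265, 0.626 and 0.391 CPM in TL+L, 0.350 CPM in TSeL and 1.15 CPM in TSeL+L, from 4 to 11 counts in each PBS and TL+L sample.

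Neutrophil markers were lower in TL+L as well. Of 12 such markers, 8 fell in TL+L and 0 rose at an edgeR adjusted p under 0.05, beside 7.17% and 5.67% of all genes. None of the 12 was at 0 counts in every sample. Their summed FPKM, at least 96.5% of it from S100a8 and S100a9, ran from 26246 to 42535 across PBS and was 30212, 17094 and 6689.9 in TL+L 1 to 3, 20173 in TSeL and 10256 in TSeL+L. TL+L 1 lay inside the PBS range, and C5ar1 and Cfp were lowest there. Without S100a8 and S100a9 the sum ran from 541 to 1502 across PBS and was 81.1, 129 and 70.5 in TL+L 1 to 3. This sum was highest in TL+L 2, as were C5ar1, Cfp and 43.6% of all genes. It was lowest in TL+L 3, while C5ar1 and Cfp were lowest in TL+L 1. Cxcr2, the chemokine receptor that draws neutrophils out of blood, had 69.7, 57.9 and 72.2 FPKM in PBS and 14.5, 21.1 and 13.2 FPKM in TL+L. The part of neutrophils in the values of C5ar1 and Cfp was not tested.

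Of the inhibitors, Serping1 fell and the others did not pass. Serping1 encodes the C1 inhibitor, which blocks C1r, C1s and the MASP proteases. It had 722, 626 and 743 CPM in PBS, 189, 356 and 266 CPM in TL+L, 269 CPM in TSeL and 348 CPM in TSeL+L. The groups stood well apart, with the highest TL+L sample at 51.1% of the PBS mean, and the fall was 2.58-fold (log2 fold change -1.36, SE 0.25, edgeR adjusted p = 0.0286). Cr1l, which encodes the rodent convertase inhibitor Crry, had 64.1, 56.5 and 67.6 CPM in PBS and 42.1, 52.3 and 43.0 CPM in TL+L. Its groups did not overlap, but the 1.37-fold difference did not pass (edgeR adjusted p = 0.0686). Cd55, which speeds the decay of convertases, had 80.2, 55.3 and 61.2 CPM in PBS and 30.3, 84.5 and 52.0 CPM in TL+L. Cd59a, which blocks the membrane pore, had 271, 278 and 203 counts in PBS, 195, 299 and 203 counts in TL+L, 404 counts in TSeL and 263 counts in TSeL+L, with a PBS mean of 15.2 CPM (SD 2.78, n = 3). Both overlapped between PBS and TL+L (edgeR adjusted p = 0.654 and 0.504). Clu, clusterin, a chaperone that also binds the terminal complex, had 121, 88.1 and 86.3 CPM in PBS and 122, 90.6 and 145 CPM in TL+L (1.21-fold higher, edgeR adjusted p = 0.383), with 96.3 CPM in TSeL and 117 CPM in TSeL+L.

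Markers of fibroblasts, a known source of C1 inhibitor, C1r and C3 in tissue, were lower as well. The summed FPKM of 10 fibroblast markers ran from 9689 to 13325 across PBS and from 2659.9 to 8429 across TL+L. It was 4599 in TSeL and 5353 in TSeL+L. TL+L 2 was again the highest of its group, as it was in 43.6% of all genes. Of the 10, 3 fell in TL+L at an edgeR adjusted p under 0.05, beside 7.17% of all genes. None of the 10 was at 0 counts in every sample. The part of these cells in the values of Serping1, C1ra, C3 and Colec12 was not tested.

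The acute phase genes held the 2 largest falls, those of Saa3 and Ptx3. Saa3 had 1217, 1218 and 777 CPM in PBS, 266, 125 and 179 CPM in TL+L, 463 CPM in TSeL and 159.9 CPM in TSeL+L. PBS was higher than every other sample, and TL+L 2 had the lowest level. Saa3 fell 5.64-fold in TL+L (log2 fold change -2.50, SE 0.34, edgeR adjusted p = 0.0173), and was called in 3 of the 6 fits that left out 1 PBS or TL+L sample, more often than any other member. Hp had 1327, 1244 and 849 CPM in PBS, 397, 224 and 338 CPM in TL+L, 309 CPM in TSeL and 216 CPM in TSeL+L. It fell 3.57-fold in TL+L (log2 fold change -1.84, SE 0.28, edgeR adjusted p = 0.0234), and the lowest PBS sample was above the highest of all others.

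Ptx3 encodes a long pentraxin that myeloid cells, endothelium and fibroblasts release at sites of inflammation and that can bind C1q. It had 64.7, 81.3 and 73.4 CPM in PBS, 15.0, 20.8 and 6.36 CPM in TL+L, 23.3 CPM in TSeL and 36.0 CPM in TSeL+L. The TL+L samples were 8.70% to 28.5% of the PBS mean. The fall was 5.20-fold (log2 fold change -2.38, SE 0.41, edgeR adjusted p = 0.0268). Colec12, a scavenger receptor of the collectin family, had 159, 155 and 169 CPM in PBS and 42.3, 118 and 62.7 CPM in TL+L, where all samples were below PBS without passing (2.17-fold lower, edgeR adjusted p = 0.0779). Lbp, which presents bacterial lipopolysaccharide to its receptor complex, had 120.1, 81.1 and 71.1 CPM in PBS and 77.7, 52.8 and 69.9 CPM in TL+L, which overlapped, with 33.4 CPM in TSeL and 121 CPM in TSeL+L.

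The acute phase genes Saa1 and Saa2, the main serum amyloid A genes of the liver, were low in every sample and did not pass. Saa1 had 5.49, 6.21 and 2.19 CPM in PBS and 5.93, 2.16 and 1.34 CPM in TL+L, and Saa2 had 2.07, 2.89 and 0.711 CPM in PBS and 2.60, 0.285 and 0.725 CPM in TL+L. Both overlapped between the groups (edgeR adjusted p = 0.549 and 0.599), and TL+L 1 was the highest of its group in both. Transcripts restricted to hepatocytes were low, with Alb, albumin, at 13.4 FPKM in TL+L 1 and 17.2 FPKM in TSeL against 2.45 to 3.50 FPKM in PBS, and Ttr, transthyretin, was listed at 0 in all 3 PBS samples and in TL+L 2. Of 8 hepatocyte markers 0 passed edgeR's test in TL+L (0 also at an unadjusted p under 0.05, and 0 by DESeq2 or limma-voom). Their summed FPKM ran from 36.7 to 57.7 across PBS and was 47.6, 243 and 69.0 in TL+L 1 to 3, 104 in TSeL and 59.4 in TSeL+L. Cyp2e1, a cytochrome P450 also made in fat, was 48.5% to 98.8% of that sum. The other 7 markers summed to 3.12 to 3.75 FPKM across PBS, to 24.6, 2.90 and 3.93 FPKM in TL+L 1 to 3, to 34.6 FPKM in TSeL and to 1.96 FPKM in TSeL+L, and none of the 8 was at 0 counts in every sample. The part of liver RNA in the values of Saa1, Saa2 and Hp was not tested.

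The coding sequences of Saa1 and Saa2 are nearly alike, while Saa3 is less like them. Over their 369 coding bases Saa1 and Saa2 shared 95.1% of bases, with an identical run of 73 bases, whereas Saa3 shared 74.3% with Saa1 and 72.7% with Saa2. The first 120 coding bases of the GENCODE transcripts are given 5′ to 3′, with capitals where a base differs from Saa1. Saa2 differs at 5 of the 120 bases and Saa3 at 48.
Saa1: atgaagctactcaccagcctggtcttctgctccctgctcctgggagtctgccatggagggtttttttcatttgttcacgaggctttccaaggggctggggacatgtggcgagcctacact
Saa2: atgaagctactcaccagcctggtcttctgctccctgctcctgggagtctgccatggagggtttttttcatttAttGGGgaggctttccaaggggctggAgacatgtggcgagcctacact
Saa3: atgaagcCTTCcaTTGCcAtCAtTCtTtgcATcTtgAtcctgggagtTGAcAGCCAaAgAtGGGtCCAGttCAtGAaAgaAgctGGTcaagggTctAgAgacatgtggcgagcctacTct
The counts of all 3 genes were whole in all 12 columns, which gives no sign of reads divided between them, and whether reads were given to the wrong copy was not tested.

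The promoters of the acute phase genes with the largest falls are shown beside that of Saa1, which overlapped between the groups. The windows are the 250 bases before the RefSeq start, from GRCm38.p6, read 5′ to 3′ on the strand of the gene. Capitals mark letters that fit a C/EBP motif (TTNNGCAA) or an NF-kappaB motif (GG and TTTCC with 3 letters of any kind between them), searched on both strands. The motifs do not overlap here. Both factors are known to drive acute phase genes.
Saa3, chr7:46715677-46715926, minus strand: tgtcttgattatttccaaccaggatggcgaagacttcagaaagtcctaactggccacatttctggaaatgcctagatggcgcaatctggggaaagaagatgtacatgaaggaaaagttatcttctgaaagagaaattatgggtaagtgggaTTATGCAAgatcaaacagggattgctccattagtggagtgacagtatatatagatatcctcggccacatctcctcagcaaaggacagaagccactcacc
Saa1, chr7:46742981-46743230, minus strand: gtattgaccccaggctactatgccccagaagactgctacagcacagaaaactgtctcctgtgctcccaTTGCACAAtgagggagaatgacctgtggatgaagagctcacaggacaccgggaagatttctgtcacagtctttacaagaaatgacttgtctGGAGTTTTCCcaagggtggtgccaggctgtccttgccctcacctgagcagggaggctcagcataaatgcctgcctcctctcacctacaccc
Ptx3, chr3:66219637-66219886, plus strand: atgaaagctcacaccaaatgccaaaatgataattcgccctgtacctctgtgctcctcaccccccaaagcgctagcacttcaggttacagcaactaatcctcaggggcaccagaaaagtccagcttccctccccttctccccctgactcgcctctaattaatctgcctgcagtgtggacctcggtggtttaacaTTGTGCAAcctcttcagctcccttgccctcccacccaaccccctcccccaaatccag
Saa3 held TTATGCAA from 99 to 92 bases before the start, Saa1 held TTGCACAA from 182 to 175 and GGAGTTTTCC from 91 to 82, and Ptx3 held TTGTGCAA from 57 to 50. The C/EBP letters occurred in 7 of the 20 members with a promoter entry and in 9.56% of all 32851 promoters, and the NF-kappaB letters in 3 of 20 and in 4.63%. Members were counted by gene and the others by promoter, so these shares are not counted alike. C5ar2 had an entry with and an entry without C/EBP letters. Saa1 and Saa2 held the same TTGCACAA, from 182 and 183 bases before the start, so they are not independent. The 3 members with NF-kappaB letters were C3ar1, Saa1 and the called C5ar1. Those with C/EBP letters were the called Saa3 and Ptx3, and C1rl, C3, C5ar2, Saa1 and Saa2, which were not called. The called C5ar1 and Cfp had promoter entries without C/EBP letters, and the called Hp, Serping1 and Masp1 had no promoter entry. A match describes letters and is not a bound site.

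The TL+L samples differed among themselves, and their order was not the same in all members. TL+L 2 was the highest TL+L sample in 23 of the 30 members tested, and in 43.6% of all genes, and TL+L 1 was the lowest in 23 members, and in 33.3% of all genes. TL+L 2 was lowest in 5 members, and in 40.9% of all genes. The 5 were Clu and 4 acute phase genes, Saa2, Saa3, Hp and Lbp. TL+L 1 was highest in 5 members, Saa1, Saa2, Saa3, Hp and Lbp, and in 33.4% of all genes. Complement genes such as C1qa (44.9%, 92.3% and 56.7% of the PBS mean in TL+L 1 to 3) and C3ar1 (26.5%, 85.7% and 34.2%) were thus nearest to PBS in the sample in which Saa3 (24.8%, 11.6% and 16.7%) and Hp (34.8%, 19.7% and 29.6%) were farthest from it. Not all acute phase genes had the order of Saa3 and Hp. Ptx3 was highest in TL+L 2 (20.5%, 28.5% and 8.70%), and Saa1 was lowest in TL+L 3 (128%, 46.7% and 28.9%).

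**Figure D3:**
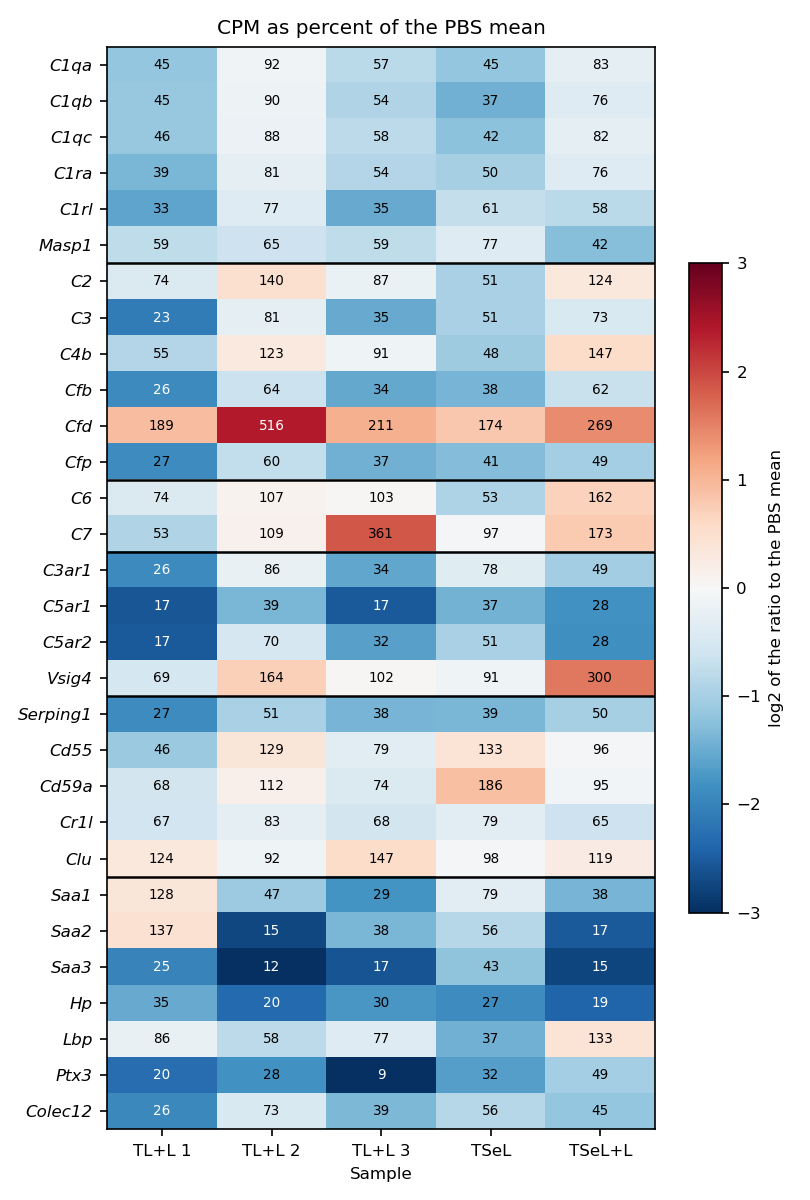
CPM of the 30 members tested as a percent of the PBS mean in each TL+L, TSeL and TSeL+L sample, coloured by the log2 of that ratio, with black lines between the roles (recognition, convertase, terminal, receptors, inhibitors, acute phase). TL+L 2 is the palest TL+L column for C1q, C3 and C3ar1 and the darkest for Saa3 and Hp, and Cfd is red in all 5 columns.

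TSeL was compared with PBS through its 1 sample. Here 0 of 30 members passed in edgeR, and 0.00% of all genes were called. At an unadjusted p under 0.05 there were 12 lower members and 1 higher, beside 7.36% and 12.3% of all genes, limma-voom called 0, and DESeq2 called 9, all lower, beside 3.54% of all genes. Of the 30, 22 lay below all PBS samples, as did 33.4% of all genes, and 3 lay above, as did 37.5%, namely Cfd, Cd55 and Cd59a. The median log2 fold change was -0.97 over the members and 0.01 over all genes. Hp was 3.69-fold lower (SE 0.44 on the log2 scale, edgeR adjusted p = 0.127) and Lbp 2.71-fold lower, at 33.4 CPM (SE 0.37, edgeR adjusted p = 0.139). C1qb, at 58.8 CPM, was 2.72-fold lower (SE 0.40, edgeR adjusted p = 0.151). Cd59a, at 28.3 CPM, was 1.86-fold higher (SE 0.33, edgeR adjusted p = 0.214), the highest of the 8 samples. Skeletal muscle transcripts were highest in this sample, with a summed FPKM of 57415 over 10 markers against 7861 to 20182 in PBS. All 10 were above every PBS sample, and 9 were higher at an unadjusted p under 0.05. All 8 hepatocyte markers were also above every PBS sample, with 7 higher at an unadjusted p under 0.05 and a median log2 fold change of 3.98, though 0 passed in edgeR. The part of muscle and liver RNA in the values of TSeL, Hp and Lbp included, was not tested.

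TSeL+L was likewise 1 sample, and 0 of 30 members passed in edgeR, when 0.0127% of all genes did, 0.00633% in each direction. At an unadjusted p under 0.05 there were 7 lower members and 2 higher, beside 11.1% and 9.55% of all genes, limma-voom called 0, and DESeq2 called 4, all lower, beside 6.21% of all genes. The 20 members below all PBS samples compare with 36.4% of all genes, and the 6 above, C4b, C6, C7, Cfd, Vsig4 and Lbp, compare with 35.9%. Masp1 was 2.41-fold lower than in PBS, the lowest of the 8 samples (log2 fold change -1.27, SE 0.18, edgeR adjusted p = 0.0823). Hp was 5.28-fold lower (log2 fold change -2.40, SE 0.46, edgeR adjusted p = 0.0955) and Saa3 6.69-fold lower (log2 fold change -2.74, SE 0.54, edgeR adjusted p = 0.105). Vsig4 was 2.96-fold higher (SE 0.62, edgeR adjusted p = 0.226) at a level near 1 CPM. Cfd was 2.69-fold higher (SE 0.55, edgeR adjusted p = 0.219). These comparisons share the PBS samples with that of TL+L, so they are given side by side and are not independent.

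**Figure D4:**
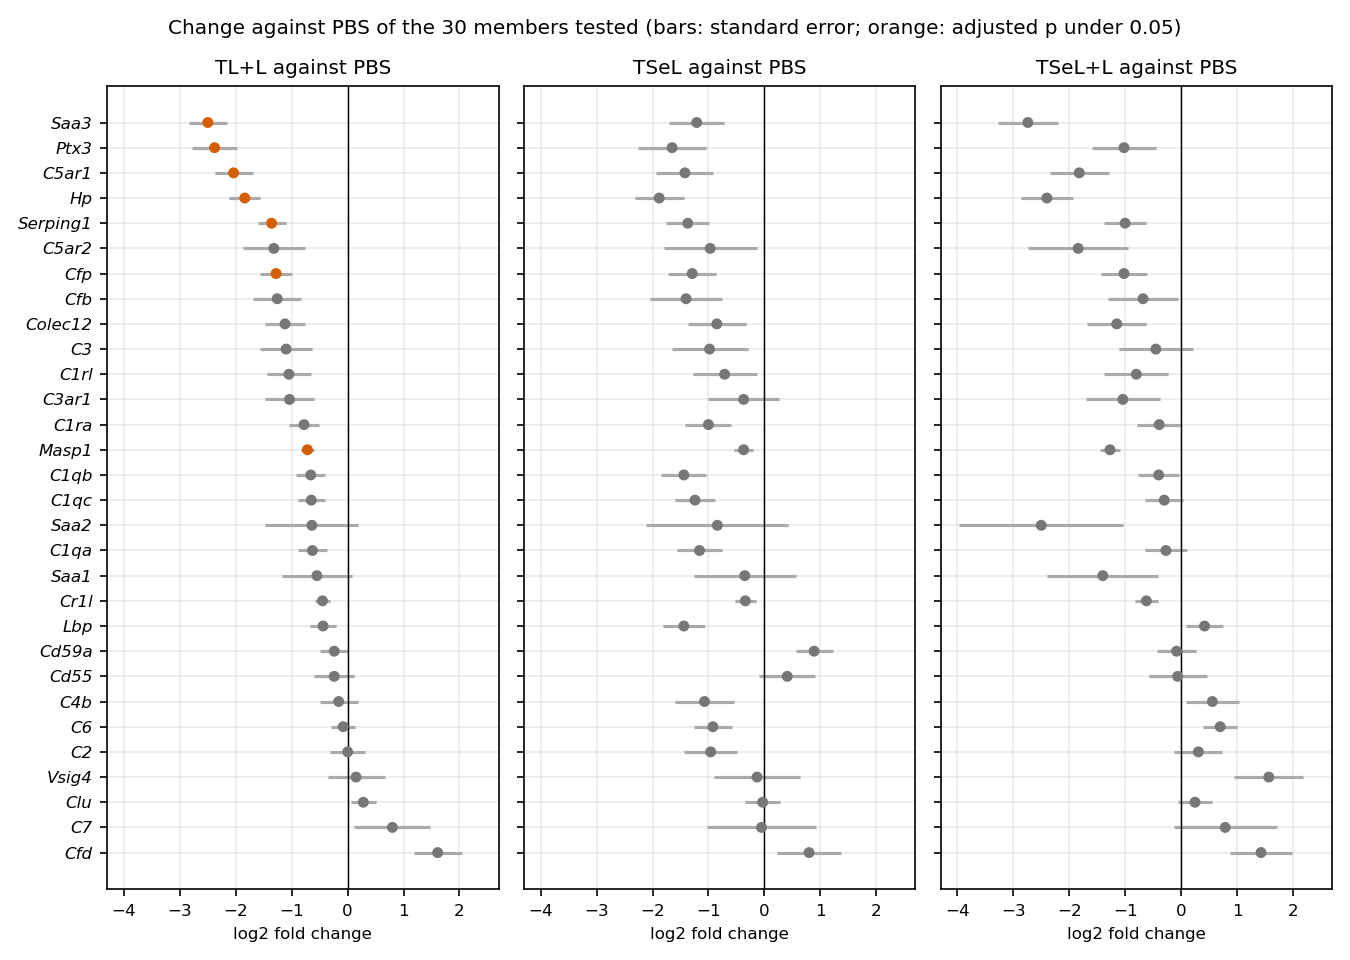
Log2 fold change of the 30 members tested in TL+L, TSeL and TSeL+L against the same PBS samples, with the standard error as a bar, genes in the order of TL+L and members with an edgeR adjusted p under 0.05 in orange. The 7 orange points are all in TL+L and below 0, while Saa3 reaches -2.74 in TSeL+L and Cfd lies above 0 in all 3 panels.

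TSeL+L against TSeL compared 2 lone samples, and 0 of 30 members passed in edgeR, as in 0.00% of all genes. At an unadjusted p under 0.05, 2 members were lower and 3 higher, beside 7.22% and 4.88% of all genes, limma-voom called 0, and DESeq2 called 1 lower and 2 higher, beside 0.953% and 1.49%. Lbp had 33.4 CPM in TSeL and 121 CPM in TSeL+L (3.62-fold higher, SE 0.43, edgeR adjusted p = 0.380) and C6 had 4.83 and 14.8 CPM (3.07-fold higher, SE 0.40, edgeR adjusted p = 0.380). C4b was 3.08-fold higher, at 559 CPM against 181 CPM (edgeR adjusted p = 0.400). Masp1 went the other way, from 38.8 to 20.9 CPM (1.86-fold lower, edgeR adjusted p = 0.380), as did Saa3, from 463 to 159.9 CPM (2.89-fold lower, edgeR adjusted p = 0.399). With 1 sample on each side these are differences between 2 samples.

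In TSeL+L against TL+L, 0 of 30 members passed in edgeR, as in 0.00% of all genes, and 0 were called by DESeq2 and by limma-voom. At an unadjusted p under 0.05, Masp1 was lower, and C6, Ptx3 and Lbp were higher, beside 0.171% and 0.165% of all genes. Ptx3 stood 2.56-fold above the TL+L mean (SE 0.52, edgeR adjusted p = 1.00) and Lbp 1.81-fold above it (SE 0.32, edgeR adjusted p = 1.00). Masp1 was 1.46-fold below it (SE 0.17). Saa3 and C5ar1 lay within the TL+L range. The median log2 fold change was 0.23 over the members and -0.04 over all genes. The shares of all genes at an unadjusted p under 0.05 were below what that threshold gives without any difference. With 1 TSeL+L sample, the lack of calls does not show that TSeL+L and TL+L are alike.

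Other genes of the same systems gave the setting in TL+L against PBS. Of 25 tested among 35 other complement genes, 4 fell and 1 rose at an edgeR adjusted p under 0.05. Over all genes, 7.17% were called lower and 5.67% higher. Itgam and Itgb2, the chains of complement receptor 3, fell 3.60-fold (edgeR adjusted p = 0.0399) and 3.23-fold (edgeR adjusted p = 0.0447), and Cd93, a surface protein once taken for a C1q receptor, fell 3.46-fold (edgeR adjusted p = 0.0353). Fcnb, a ficolin, a lectin that starts the lectin pathway, had 148 counts over the 3 PBS samples (58, 76 and 14) and 2 over the 3 TL+L samples. The ratio of the summed counts was 81.2 per depth (95% exact interval 22.1 to 677, counting error only, without the spread between samples). Fcnb fell 68.2-fold in edgeR (SE 1.00 on the log2 scale, edgeR adjusted p = 0.0256). Susd4, a membrane regulator of complement, rose 3.24-fold (edgeR adjusted p = 0.0284), with 0.799 to 1.54 CPM across PBS and 3.99 to 4.35 CPM across TL+L. Of 22 tested among 25 other acute phase genes, 5 fell and 1 rose, beside the same shares of all genes. Lrg1, a leucine-rich acute phase glycoprotein, had 126, 129.7 and 108 CPM in PBS and 49.1, 42.1 and 36.7 CPM in TL+L (2.84-fold, edgeR adjusted p = 0.00939). Cp, the copper oxidase ceruloplasmin, fell 2.81-fold (edgeR adjusted p = 0.0271), and Serpina3n, Serpina3g and Steap4 fell 1.97-fold to 2.95-fold. Orm1, an orosomucoid, rose 2.15-fold (edgeR adjusted p = 0.0321), so the acute phase genes did not all go one way.

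Genes that induce the acute phase, carry its signal or, like Socs3, restrain that signal had a negative fold change in all 17 cases. Of the 17, 11 fell and 0 rose at an edgeR adjusted p under 0.05, beside 7.17% and 5.67% of all genes. Their median log2 fold change was -1.17, and that of all genes tested was 0.01. Socs3, the feedback inhibitor that IL-6 type cytokines switch on, had 318, 353 and 345 CPM in PBS and 113, 112 and 111 CPM in TL+L (3.03-fold, edgeR adjusted p = 0.00535). Cebpd, a C/EBP factor that rises in the acute phase, had 85.8, 87.6 and 85.0 CPM in PBS and 31.7, 31.5 and 33.8 CPM in TL+L (2.66-fold, edgeR adjusted p = 0.00535). In both genes TL+L 2 lay with its group, unlike in C1qa, C3 or Cfd. Cebpd had 86.2 CPM in TSeL, within 1 SD of PBS, and 38.8 CPM in TSeL+L. Osm, the cytokine oncostatin M, fell 4.54-fold (edgeR adjusted p = 0.0234), and its receptor gene Osmr fell 2.03-fold (edgeR adjusted p = 0.0265). The remaining 7 that fell were Il6, Il1a, Il1b, Tnf, Stat3, Nfkbia and Nfkbiz, from 1.59-fold for Stat3 to 17.4-fold for Il6.

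Of the markers of other skin tissues, 5 of 8 for blood endothelium fell in TL+L, beside 7.17% of all genes. Their summed FPKM was 334 to 446 across PBS and 143 to 237 across TL+L. For epidermal keratinocytes 2 of 10 rose, and for hair shaft and root sheath 1 of 12 did, beside 5.67% of all genes. All 12 hair markers were higher in every TL+L sample than in every PBS sample, beside 20.6% of all genes. All 12 were also higher at an unadjusted p under 0.05 in edgeR, beside 17.7%. DESeq2 called 10 of them and limma-voom 4. Their summed FPKM was 6.86 to 819.7 across PBS, 2417 to 14971 across TL+L, 84.6 in TSeL and 8174 in TSeL+L. For skeletal muscle 0 of 10 and for red cells 0 of 4 tested passed edgeR's test in TL+L, and at an unadjusted p under 0.05 these were 0 and 1. DESeq2 called 0 in both lists, and limma-voom called 0 and 1. The part of tissue make-up in the members' values was not tested.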

How the data were processed

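Skin was frozen, RNA was extracted with Trizol and poly(A) libraries were made with an Illumina TruSeq kit, as the labels' protocols say. Bowtie2 and RSEM are named in the submitters' processing notes. Their versions, the genome build, the annotation and the strand setting were not given in the sources used here. Expected counts (estimated reads per gene and transcript) and FPKM were made by the authors and deposited. Of the deposited gene counts 88.7% were whole, and all were rounded. FPKM served for levels between genes and for the levels and sums of marker genes, and no test used them. Those of TSeL and TSeL+L were computed from their counts and the gene lengths that the other samples imply, which gave back the members' deposited FPKM of those samples to 0.966 to 1.033 times (5th to 95th percentile). Of the columns with per-sample values, 42 were not used.

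Column codes gave the samples, TS and TSL being read as TSeL and TSeL+L. The mean chi-square per gene (at least 40 counts in the pair) was 1.19 to 1.41 between TSeL columns and 1.38 to 1.49 between TSeL+L columns, beside 25.1 to 59.0 among PBS samples and 60.9 to 184 among TL+L samples, so the trios were averaged. edgeR 4.0.16 (R 4.3.3; filterByExpr; TMM factors 0.852 to 1.10; robust quasi-likelihood F-test, two-sided; 4 residual degrees of freedom; biological coefficient of variation 0.278) tested 15791 genes, with Benjamini-Hochberg adjustment over all of them and a threshold of 0.05. CPM use the TMM factors. With 3 samples a side the smallest p of an exact permutation test is 0.1.

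The members and the lists of other genes and markers were chosen with earlier results of these data known. All 206 list genes were found. Every sample is given for members that passed, for those with the 2 smallest p in each direction of a comparison and for the 3 of highest FPKM, and for others by role. The fit was tested on simulated data. Alternatives were DESeq2 1.42.0, limma-voom (limma 3.58.1), other scalings and filters, all 12 columns, only the compared groups, a block for the sample number, and fits without 1 PBS or TL+L sample. Coding sequences are from GENCODE and promoters from RefSeq.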

Additional observations from a re-analysis of the deposited data

How the results depend on the processing

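Of the 7 members that fell in TL+L against PBS, all 7 also passed with DESeq2, limma-voom, library totals or DESeq2's size factors as the scaling, a stricter filter or none, all 12 columns as samples and only the compared groups. DESeq2 called 13 members, 12 of them lower. Limma-voom called 8, 7 of them lower, beside 8.54% of all genes lower and 4.47% higher. Library totals also called 8, 7 of them lower, beside 5.71% and 9.63%. In each the 1 higher member was Cfd. The fit of all 12 columns called 19 (22.3% of all genes called lower and 24.2% higher) and treats near-identical columns as separate samples. Leaving out 1 PBS or TL+L sample gave 0 to 19 called members for TL+L against PBS, 0 to 7 for TSeL against PBS and 0 to 10 for TSeL+L against PBS, the highest of each without TL+L 2, where for TSeL 2.79% of all genes were called lower and 5.56% higher, and for TSeL+L 7.92% and 5.82%. For TSeL+L against TSeL and against TL+L it gave 0 each time. For TSeL against PBS, DESeq2 called 9, all 12 columns 20 (all genes 21.5% lower and 20.8% higher) and only the compared groups 7 (1.25% and 1.46%). For TSeL+L against PBS these were 4, 16 (23.7% and 22.3%) and 10 (7.40% and 4.22%), and for TSeL+L against TSeL DESeq2 called 3 and all 12 columns 12 (22.7% and 20.2%). For TSeL+L against TL+L every alternative called 0. The causes of these shifts were not tested. Library totals in place of TMM shifted the median over all genes (log2 fold change) from 0.01 to 0.15 in TL+L, from 0.01 to -0.18 in TSeL and from -0.00 to 0.16 in TSeL+L against PBS, and from -0.07 to 0.27 in TSeL+L against TSeL. Of the values under alternatives of the members named in full by rule, none changed sign, 289 kept their side of the threshold, 30 passed it and 35 lost it. Among all 30 members tested, the sign held under every alternative for 24 in TL+L against PBS, 27 in TSeL against PBS, 28 in TSeL+L against PBS, 27 in TSeL+L against TSeL and 21 in TSeL+L against TL+L. In TL+L against PBS the 6 that turned were C2 (log2 fold change 0.00, to -0.31 without TL+L 2), C4b (-0.16, to 0.11 without TL+L 1), C6 (-0.08, to 0.09 without TL+L 1), C7 (0.80, to -0.30 without TL+L 3), Cd55 (-0.24, to 0.07 without TL+L 1) and Vsig4 (0.15, to -0.22 without TL+L 2), none of them called.

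Same-numbered PBS and TL+L samples deviated from their group means with correlations of -0.17, 0.13 and 0.21 across genes, and not every sample correlated best with its own number, so the numbers were not taken to pair samples. With the replicate block, 4 of the 7 members were called and no others, when 3.56% of all genes were called lower and 3.51% higher; Masp1, Serping1 and Cfp lost their call (edgeR adjusted p = 0.0586, 0.0548 and 0.0577).

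Depth was even, and Cfi had too few counts to be tested. Vsig4, Saa1, Saa2 and C5ar2 also had few counts, and small differences in them were not detectable here. Saa1 and Saa2 also varied widely between samples of a group. Saa2 had 34, 47 and 12 counts in PBS and 49, 5 and 13 counts in TL+L. Whether depth or this spread set the limit was not tested. Levels of C1ra, C4b, Cd59a and Colec12, whose counts were not whole, are less certain. TSeL and TSeL+L have 1 sample each, the labels do not tie samples to animals, and what TL, TSeL and L are is not known here.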
